A study of Mus musculus with 24 samples.

Results

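Muscle stem cells (MuSCs) of injured dystrophic muscle were set against MuSCs of resting healthy muscle, to ask whether the former resemble the latter more than they resemble activated WT cells. The comparison took the 3 libraries titled as *mdx* activated MuSCs and the 3 titled as WT freshly isolated MuSCs, chosen by those titles alone, which makes 6 of the 24 bulk RNA-seq libraries of the series. WT freshly isolated MuSCs (FiMuSCs) carried the genotype Pax7-nGFP, a reporter that marks *Pax7*-expressing nuclei with GFP, and came from hindlimb muscle that had not been injured. *mdx* activated MuSCs (AMuSCs) carried the genotype mdx.Pax7-nGFP, in which a mutation of *Dmd* removes full-length dystrophin, and came from hindlimb muscle 3 days after an intramuscular injection of 10 µM cardiotoxin, a toxin that kills myofibres. WT AMuSCs (the same injury, WT genotype) and *mdx* FiMuSCs (no injury, *mdx* genotype), with 3 libraries each, were set beside them as the reference points of the design. WT mice were C57BL/10ScSnJ and *mdx* mice C57BL/10ScSn-Dmd mdx/J, each crossed to the reporter and matched for age and sex, and the age behind these libraries was not stated in the sources used here. All these cells were sorted as GFP+ and ITGA7+ and negative for CD31, CD45, SCA1 and CD11b, so that every group carried the reporter and passed 1 gate. Between *mdx* AMuSCs and WT FiMuSCs both genotype and injury differ, and their parts in a difference cannot be told apart from these 6 libraries alone. Totals were 37280196 to 44436564 expected counts in the WT FiMuSC libraries and 48132945 to 56673199 in the *mdx* AMuSC libraries.

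MuSCs lie quiescent beneath the basal lamina of the myofibre, held there by Notch signals, the calcitonin receptor and matrix that they make themselves. After injury they re-enter the cell cycle, and most of their progeny switch on *Myod1* and then *Myog*, leave the cycle and fuse, while some return to quiescence. Dystrophin links the cytoskeleton of the fibre to its matrix and is also made by MuSCs, and *mdx* muscle degenerates and regenerates continually.

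Transcripts of MuSC markers were present in both groups. *Pax7*, the transcription factor that defines MuSCs, was at 2136, 1603 and 1555 CPM (counts scaled to a common library total) in WT FiMuSCs and at 900.4, 949.9 and 838 CPM in *mdx* AMuSCs. *Itga7*, the integrin used in the sort, was at 581 ± 113 CPM (SD, n = 3) in WT FiMuSCs and 1186 ± 153 CPM in *mdx* AMuSCs, and *Cdh15*, the cadherin of the niche junction, was at 429 ± 65.2 and 838 ± 212 CPM. All 6 libraries therefore held these markers at high levels. Cells were sorted on the *Pax7* reporter and ITGA7, so that *Pax7* and *Itga7* levels do not test identity apart from the gate.

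*mdx* AMuSC replicate 1 stood apart. The summed level of 15 macrophage markers, all of them detected, was 6585 CPM in replicate 1 and 237 and 469 CPM in replicates 2 and 3 of *mdx* AMuSCs. In WT FiMuSCs the same sum was 120, 376 and 81.7 CPM, and in WT AMuSCs it did not exceed 49.2 CPM. In *mdx* FiMuSCs it was 609.9, 1062 and 2036 CPM. *Ptprc*, which encodes the CD45 antigen selected against in the sort, was at 185 CPM in that library and at 4.97 and 18.4 CPM in the others of its group, against 8.42, 24.9 and 6.49 CPM in WT FiMuSCs. Leukocyte markers (1215 CPM against 52.9 and 109 CPM), MHC class II genes (684 against 35.5 and 48.7 CPM) and neutrophil markers (350 against 17.9 and 48.8 CPM) moved with them within the group, as the plot of marker sums by library shows. Neutrophil markers were at 163, 543 and 77.2 CPM in WT FiMuSCs, where replicate 2 exceeded *mdx* AMuSC replicate 1. MHC class II genes were at 317, 458 and 936 CPM in *mdx* FiMuSCs, where replicate 3 exceeded it. Results that rest on *mdx* AMuSC replicate 1 are given with and without it, and the part of RNA from other cells in them was not tested. In these bulk libraries, fewer cells of a type and less RNA per cell cannot be told apart.

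**Figure D1:**
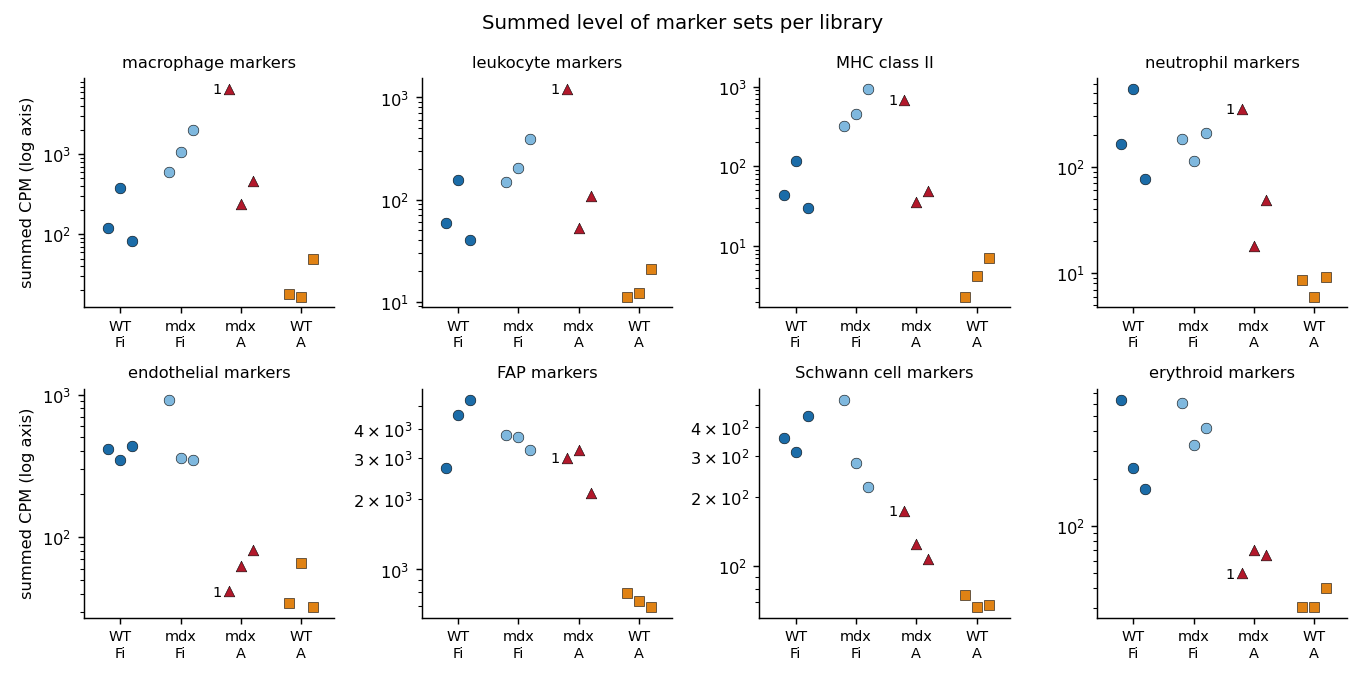
Summed level (CPM, log axis) of 8 sets of marker genes in each of the 12 sorted libraries, with 3 points per group for WT FiMuSC, mdx FiMuSC, mdx AMuSC (replicate 1 is numbered) and WT AMuSC. mdx AMuSC replicate 1 is at 6585 CPM for macrophage markers, above the other 11 libraries, whereas endothelial and erythroid markers are lower in all 3 mdx AMuSC libraries than in the 3 WT FiMuSC libraries.

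Which WT group the *mdx* AMuSCs lay nearer depended on the genes and the measure taken. In the plane of the first and second principal components of all 24 libraries, computed from the 500 most variable genes, the mean distance of *mdx* AMuSC libraries was 25.8 to WT FiMuSCs and 45.2 to WT AMuSCs, a ratio of 0.570. Over all 22319 genes kept in the 24 libraries, the Euclidean distance in log2 CPM was 247.5 to WT FiMuSCs and 200.3 to WT AMuSCs, a ratio of 1.24. In the plane 2 of 3 *mdx* AMuSC libraries lay nearer WT FiMuSCs, and over all genes 0 of 3 did. Both ratios gave p = 0.1 in a two-sided exact permutation test over the 20 ways to label the 6 WT libraries, which is the smallest value that this design allows. The test relabels only WT libraries and leaves out the spread among *mdx* AMuSC libraries. Ratios in opposite directions gave the same p, so it cannot decide which WT group lay nearer.

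Replicate 1 lay furthest toward WT FiMuSCs in the plane. It was at 12.7 from WT FiMuSCs and 57.4 from WT AMuSCs, whereas replicate 2 lay at 37.2 and 34.3 and replicate 3 at 27.5 and 44.0. Over replicates 2 and 3 alone in the same plane, a value added after the data had been seen, the distances were 32.3 and 39.1, a ratio of 0.826 (p = 0.2, exact permutation test). With the components also computed again without replicate 1, the ratio was 1.14 (p = 0.4, exact permutation test). Over all genes the distances of replicates 1, 2 and 3 were 239.2, 279.3 and 224.0 to WT FiMuSCs and 232.3, 199.5 and 169.1 to WT AMuSCs. Each of the 3 libraries was thus nearer WT AMuSCs when every gene was counted, replicate 1 by the least. By rank correlation over all genes the ratio was 1.56, in the plane of the 12 sorted libraries alone it was 1.21, and with the same 500 genes outside the plane, a measure added after the data had been seen, it was 1.07. With the 2000 most variable genes it was 0.760 and after a variance stabilizing transformation 0.944.

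**Figure D2:**
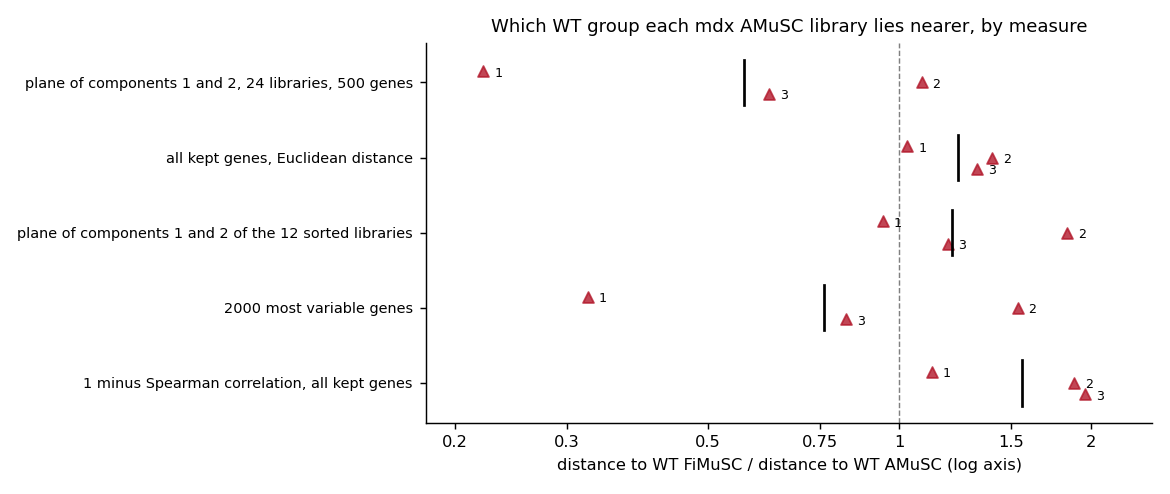
Distance of each mdx AMuSC library (triangles, numbered by replicate) to WT FiMuSCs divided by its distance to WT AMuSCs (log axis) under 5 measures, with the ratio of the group means as a vertical bar. Bars lie left of 1 (nearer WT FiMuSCs) for the plane of 24 libraries (0.570) and for the 2000 most variable genes (0.760), and right of 1 for the other 3 measures (1.21 to 1.56).

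Along the straight line from the WT FiMuSC mean (0%) to the WT AMuSC mean (100%), over the 21086 genes kept in the 12 sorted libraries, *mdx* AMuSC replicates 1, 2 and 3 were at 53.1, 80.9 and 68.0%, and their mean was at 67.4%. WT FiMuSC libraries, each placed on a line drawn without it, were at 2.27 to 10.2%, WT AMuSC libraries at 94.6 to 95.1% and *mdx* FiMuSC libraries at 10.7 to 14.7%. The *mdx* AMuSCs lay between the WT states and past the middle, with no overlap with any of the other groups. Of the squared distance between the *mdx* AMuSC and WT FiMuSC means, 59.6% ran along this line and the rest off it.

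**Figure D3:**
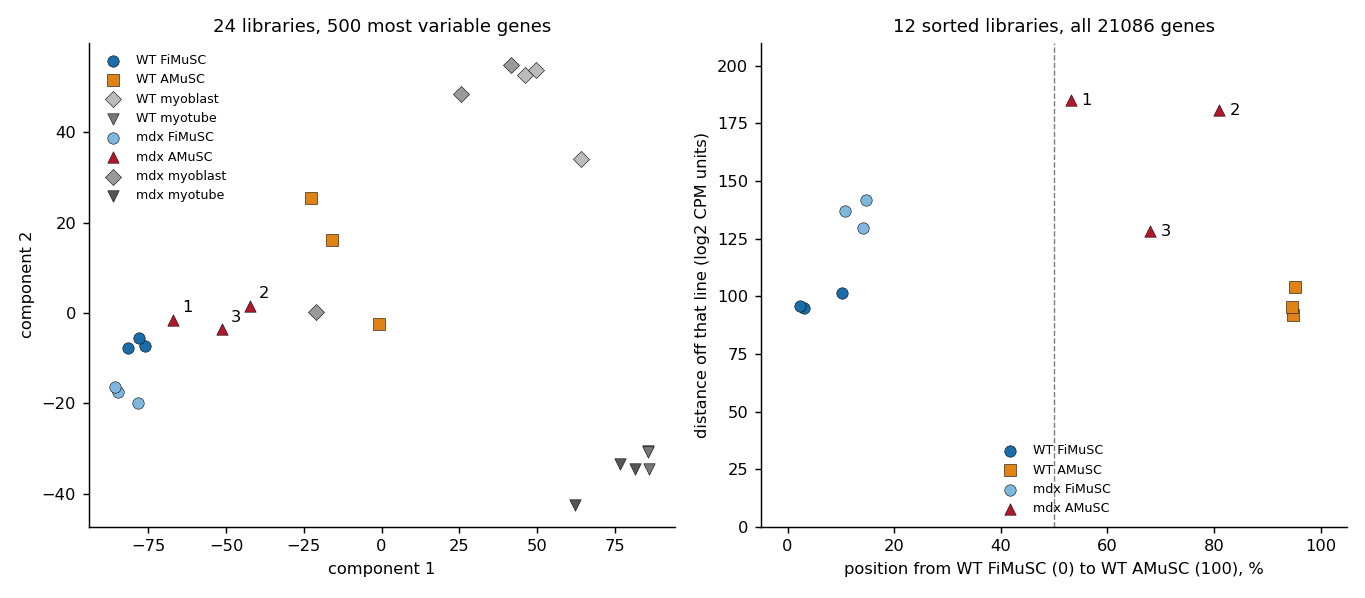
Left, the 24 libraries on components 1 and 2 (500 most variable genes), with the mdx AMuSC libraries numbered by replicate. Right, the 12 sorted libraries by their position from WT FiMuSC (0%) to WT AMuSC (100%) over all genes and their distance off that line; mdx AMuSC libraries are at 53.1, 80.9 and 68.0%, right of the dashed midpoint.

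Gene by gene, 9430 of 21086 genes tested (44.7%) differed between *mdx* AMuSCs and WT FiMuSCs at an adjusted p under 0.05, here and throughout from edgeR's quasi-likelihood test with Benjamini-Hochberg adjustment. Of these, 5257 (24.9%) were higher and 4173 (19.8%) lower in *mdx* AMuSCs. The 3 and 3 libraries did not overlap for 11375 genes (53.9%), with *mdx* AMuSCs above for 27.6% and below for 26.3% of genes. In the same fit 6125 genes (29.0%) differed between *mdx* AMuSCs and WT AMuSCs, 3379 higher (16.0%) and 2746 lower (13.0%). For scale, 11567 (54.9%) differed between the WT groups and 7699 (36.5%) between *mdx* AMuSCs and *mdx* FiMuSCs. Without *mdx* AMuSC replicate 1 the counts were 9383 against WT FiMuSCs and 4336 against WT AMuSCs. These comparisons share the *mdx* AMuSC libraries. The response to injury differed between the genotypes for 3189 genes (15.1%), 1717 of them higher (8.14%) and 1472 lower (6.98%) in *mdx*. Called differences beyond 4-fold numbered 2920 against WT FiMuSCs, 1556 higher and 1364 lower, and 1261 against WT AMuSCs, 1113 higher and 148 lower. The 95% interval of the fold change lay within 2-fold for 6400 genes (30.4%) against WT FiMuSCs, for 7977 (37.8%) against WT AMuSCs and for 4871 (23.1%) between the WT groups.

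The side of the WT range on which each gene fell was tested against the midpoint of the WT means, a contrast that is uncorrelated with the difference between the WT groups. A side gives only the direction from the midpoint and takes in levels beyond that WT group, so it does not measure resemblance. Of the 11567 genes that changed with injury in WT, 2711 (23.4%) lay on the WT AMuSC side in *mdx* AMuSCs, 888 (7.68%) on the WT FiMuSC side, and 7968 (68.9%) were not separated from the midpoint. Among genes that rose with injury in WT, 1646 of 5946 were on the AMuSC side and 209 on the FiMuSC side, and among genes that fell, 1065 and 679 of 5621. Over all genes tested, 3333 (15.8%) lay above and 1733 (8.22%) below the midpoint, 24.0% in all. The FiMuSC count was 528 without *mdx* AMuSC replicate 1, 573 without WT FiMuSC replicate 2 and 540 without WT AMuSC replicate 1, and the AMuSC count stayed between 2079 and 2775 whichever library was left out.

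Cell cycle genes were high in *mdx* AMuSCs. All 30 genes of a mitosis list rose against WT FiMuSCs (24.9% of all genes did), with a median log2 fold change of 3.67, and all 30 lay on the WT AMuSC side of the midpoint. *Mki67*, a nuclear protein of cycling cells, was at 57.3, 35.8 and 25.2 CPM in WT FiMuSCs and at 407, 463 and 575 CPM in *mdx* AMuSCs (log2 fold change 3.61 ± 0.26, SE, adjusted p = 1.13e-06). *Aurkb*, the kinase of the chromosomal passenger complex, was at 5.19, 4.38 and 2.69 CPM against 40.6, 56.0 and 49.99 CPM. Neither gene overlapped between the groups. *Cdk1*, the mitotic cyclin-dependent kinase, rose by 3.60 ± 0.34 on the log2 scale, *Cenpa*, the histone variant of centromeres, by 3.14 ± 0.35, and *Kif11*, a spindle motor, by 3.37 ± 0.21. Against WT AMuSCs 4 of the 30 mitosis genes were lower and 0 higher, with a median of -0.70. That share is near the 13.0% of all genes called lower. DESeq2 called 17 lower, and 21 were lower with an edgeR p under 0.05 before adjustment. Without *mdx* AMuSC replicate 1, edgeR called 3 lower, 4 were lower before adjustment, and the median was -0.558. *Kif11* (-0.60), *Ttk*, a kinase of the spindle checkpoint (-0.61), and *Knl1*, a scaffold of the kinetochore (-0.81), were among the 4 called by edgeR with replicate 1. For *Mki67* the log2 difference of -0.66 had an adjusted p of 0.056.

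Of 32 DNA replication genes, 31 were higher than in WT FiMuSCs and 1 lower, with a median of 2.29, but 30 of 32 were lower than in WT AMuSCs, with a median of -1.02 (24.9% of all genes were higher and 13.0% lower in these comparisons). *Mcm5*, a subunit of the replicative helicase, was at 26.6, 22.5 and 20.8 CPM in WT FiMuSCs, 106, 153 and 133 CPM in *mdx* AMuSCs and 276 CPM on average in WT AMuSCs. *Mcm2*, of the same helicase, was at 25.6, 20.0 and 21.8 CPM against 90.2, 133 and 122 CPM, with 252 CPM in WT AMuSCs. Each *mdx* AMuSC library thus lay between the WT groups for both genes. *Lig1*, the ligase that joins Okazaki fragments, rose by 2.33 ± 0.17 and *Uhrf1*, which maintains DNA methylation at the fork, by 3.16 ± 0.24 on the log2 scale, and both were lower than in WT AMuSCs, by -0.81 and -1.18.

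The promoters of the replication and mitosis genes with the smallest p among those that have a sequence, 2 from each list, are shown because genes of these lists moved together. They run from 250 bases before to 50 bases after the start in RefSeq (GRCm38.p6), read along the gene. Capitals mark TTTGAA, the core of the cell cycle homology region, CCAAT, and the E2F-type motifs TTCCCGC and TTGGCGC, on either strand.
*Mcm5* (chr8:75109259-75109558, plus strand): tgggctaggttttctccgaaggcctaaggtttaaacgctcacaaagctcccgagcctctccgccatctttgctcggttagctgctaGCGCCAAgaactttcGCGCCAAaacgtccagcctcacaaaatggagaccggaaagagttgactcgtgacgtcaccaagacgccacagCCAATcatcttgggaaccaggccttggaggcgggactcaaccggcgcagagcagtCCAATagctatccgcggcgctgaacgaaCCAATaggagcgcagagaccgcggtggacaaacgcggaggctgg
*Mcm2* (chr6:88898731-88899030, minus strand): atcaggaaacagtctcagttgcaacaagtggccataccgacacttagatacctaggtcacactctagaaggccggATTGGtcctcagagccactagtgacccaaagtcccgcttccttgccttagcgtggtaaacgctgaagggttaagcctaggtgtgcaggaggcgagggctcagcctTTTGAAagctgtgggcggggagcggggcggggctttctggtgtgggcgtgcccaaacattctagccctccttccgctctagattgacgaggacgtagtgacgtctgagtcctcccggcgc
*Ttk* (chr9:83834439-83834738, plus strand): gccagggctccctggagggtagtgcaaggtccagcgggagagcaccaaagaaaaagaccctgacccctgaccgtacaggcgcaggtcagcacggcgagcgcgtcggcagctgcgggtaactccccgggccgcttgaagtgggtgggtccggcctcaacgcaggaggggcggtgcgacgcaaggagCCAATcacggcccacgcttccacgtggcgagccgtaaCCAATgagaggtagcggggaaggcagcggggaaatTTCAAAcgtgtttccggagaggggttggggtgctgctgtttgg
*Knl1* (chr2:119046869-119047168, plus strand): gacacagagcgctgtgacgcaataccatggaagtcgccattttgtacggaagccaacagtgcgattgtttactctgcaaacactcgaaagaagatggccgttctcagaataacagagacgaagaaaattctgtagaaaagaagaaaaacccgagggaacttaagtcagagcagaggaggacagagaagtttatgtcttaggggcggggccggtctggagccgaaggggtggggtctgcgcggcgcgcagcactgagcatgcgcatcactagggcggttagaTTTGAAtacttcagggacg
TTTGAA stood in 80.8% of 26 mitosis promoters, 11.1% of 27 replication promoters, 13.1% of 12846 promoters of genes tested and 18.1% of all 27025. CCAAT stood in 80.8, 59.3, 38.4 and 37.9% of the same sets. TTCCCGC or TTGGCGC stood in 15.4% of mitosis and 48.1% of replication promoters, against 11.2% for genes tested and 6.93% for all. These motifs do not overlap each other in the sequences shown, and a match describes letters in this window.

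Most listed genes of quiescence were lower in *mdx* AMuSCs than in WT FiMuSCs, and 17 of 31 were above the WT AMuSC level. Of the 31 quiescence and stemness genes, 21 were lower and 4 higher than in WT FiMuSCs (median -1.06), or 67.7 and 12.9% against 19.8 and 24.9% of all genes. Set against WT AMuSCs, 17 were higher, 2 lower and 12 not called (median 0.74), where 16.0% of all genes were higher and 13.0% lower. *Pax7* lay at the middle of the WT range: it differed by -0.98 ± 0.15 from WT FiMuSCs, with 429.5 CPM in WT AMuSCs, and its distance from the WT midpoint was not called (adjusted p = 0.85). *Calcr*, the calcitonin receptor that holds MuSCs quiescent, was at 309, 407 and 345 CPM in WT FiMuSCs and at 29.1, 15.7 and 18.4 CPM in *mdx* AMuSCs (log2 fold change -4.07 ± 0.28, adjusted p = 9.7e-07), with 10.9 CPM in WT AMuSCs. *Spry1*, an inhibitor of FGF signalling needed for return to quiescence, was at 1192, 883 and 953 CPM against 151, 151 and 142 CPM, with 81.1 CPM in WT AMuSCs. For both genes the 6 libraries did not overlap. *Myf5*, a determination factor already transcribed in quiescent cells, differed by -1.59 ± 0.19.

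Some quiescence genes went below the level of both WT groups. *Chrdl2*, a secreted antagonist of BMPs, was at 280, 448 and 376 CPM in WT FiMuSCs, 2.82, 2.25 and 2.29 CPM in *mdx* AMuSCs (log2 fold change -7.23 ± 0.27, adjusted p = 5.64e-08) and 5.26 CPM in WT AMuSCs. *Tnxb*, tenascin X of the matrix, was at 1515, 1296 and 1373 CPM against 9.81, 4.83 and 10.4 CPM. *Chrdl2* was lower than in WT AMuSCs by -1.10 (adjusted p = 0.0038) and *Tnxb* by -1.17 (adjusted p = 0.0177). The inhibitors of cyclin-dependent kinases moved in opposite directions. *Cdkn1b* (p27) fell from 184, 189 and 202 to 104, 81.9 and 88.6 CPM, whereas *Cdkn1c* (p57), found in myogenic cells that leave the cycle, rose from 35.5, 26.4 and 21.8 to 277, 398 and 278 CPM and stood above WT AMuSCs (172 CPM) by 0.88 on the log2 scale (adjusted p = 0.00493).

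**Figure D4:**
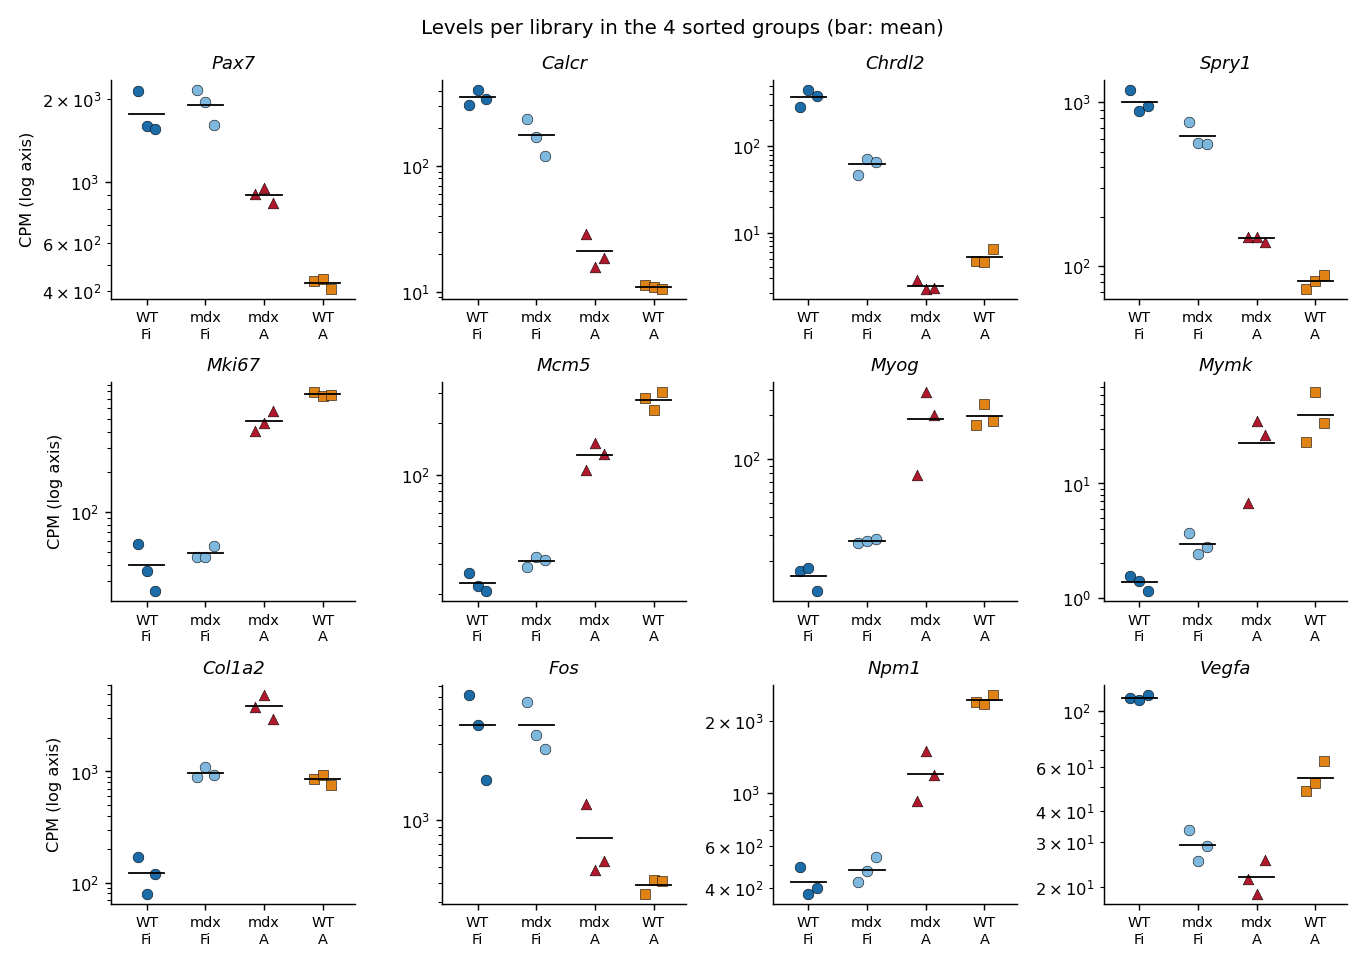
Levels (CPM, log axis) of 12 genes in the 4 sorted groups, ordered WT FiMuSC, mdx FiMuSC, mdx AMuSC, WT AMuSC, with 1 point per library and the mean as a bar. Pax7, Calcr, Spry1, Mcm5 and Npm1 of mdx AMuSCs lie between the WT groups, Myog replicate 1 (77.8 CPM) lies below the other mdx AMuSCs, Col1a2 lies above both WT groups and Chrdl2 and Vegfa lie below both.

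Commitment genes were mostly raised. Of 28, 15 were higher and 3 lower than in WT FiMuSCs (median 1.42), or 53.6 and 10.7% against 24.9 and 19.8% of all genes. The number lower was 1 without *mdx* AMuSC replicate 1, WT FiMuSC replicate 1 or *mdx* AMuSC replicate 2. Set against WT AMuSCs, 0 were higher and 4 lower (median -0.92), a lower share near the 13.0% of all genes. DESeq2 called 7 lower, and 8 were lower with an edgeR p under 0.05 before adjustment. Without *mdx* AMuSC replicate 1, edgeR called 1 lower than in WT AMuSCs, and 4 were lower before adjustment. *Myog*, the factor of terminal commitment, was at 17.0, 17.8 and 12.4 CPM in WT FiMuSCs and at 77.8, 289 and 202 CPM in *mdx* AMuSCs (log2 fold change 3.59 ± 0.40). *Mymk*, the membrane protein that lets myoblasts fuse, was at 1.56, 1.41 and 1.13 CPM against 6.75, 35.1 and 26.4 CPM (4.05 ± 0.59). Replicate 1 was the lowest of its group for both and still above every WT FiMuSC library. Relative to WT AMuSCs, *Myog* differed by -0.07 (adjusted p = 0.917) and *Mymk* by -0.81 (adjusted p = 0.274). *Myod1*, the determination factor of activated cells, was at 168, 172 and 156 CPM against 140, 305 and 290 CPM and was not called (0.57 ± 0.26, adjusted p = 0.0947), but without replicate 1 its adjusted p was 0.00329. It was below WT AMuSCs by -1.05 (adjusted p = 0.011). *Mef2a*, a partner of the myogenic factors, rose by 1.92 ± 0.18 and *Neb*, a giant protein of the thin filament, by 3.21 ± 0.33. The sarcomeric *Acta1* was not called (1.18 ± 0.69, adjusted p = 0.191).

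Most genes listed for energy metabolism and the proteasome were higher than in WT FiMuSCs. All 25 oxidative phosphorylation genes were higher than in WT FiMuSCs (median 1.16), as were all 25 proteasome genes (median 0.84) and 15 of 20 glycolysis genes (median 1.42), with 0 lower in each list. Of all genes, 24.9% were higher and 19.8% lower. Against WT AMuSCs 4 oxidative phosphorylation genes, 20 proteasome genes and 6 glycolysis genes were lower and 0 higher, or 1, 11 and 1 lower without *mdx* AMuSC replicate 1. Of all genes, 13.0% were lower than in WT AMuSCs, and the oxidative phosphorylation share is near that. *Cox5a*, a subunit of cytochrome c oxidase, was at 35.4, 43.8 and 39.9 CPM in WT FiMuSCs and 96.9, 185 and 125 CPM in *mdx* AMuSCs. *Eno1*, the glycolytic enolase, was at 257, 202 and 193 CPM against 951, 1903 and 1439 CPM. *Psmc1*, an ATPase of the proteasome, was at 72.6, 80.7 and 80.0 CPM against 144, 247 and 180 CPM. None of these overlapped, and replicate 1 was the lowest of its group for each.

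Ribosome biogenesis genes lay between the WT groups. Their summed level was 3025, 3099 and 3145 CPM in WT FiMuSCs, 3738, 5955 and 5373 CPM in *mdx* AMuSCs and 10480, 9588 and 11050 CPM in WT AMuSCs, so that the groups did not overlap. Of 25 genes, 9 were higher and 0 lower than in WT FiMuSCs (median 0.35, 36% higher against 24.9% of all genes), 19 had an interval within 2-fold (30.4% of all genes did), 4 lay on the WT FiMuSC side of the midpoint and 21 were not separated from it, and 24 were lower than in WT AMuSCs (median -1.08, where 13.0% of all genes were lower). The count of 9 was 14 without *mdx* AMuSC replicate 1 and 4 without WT FiMuSC replicate 1, WT FiMuSC replicate 2 or *mdx* AMuSC replicate 2. *Ncl*, nucleolin, was at 640.2, 612 and 637 CPM in WT FiMuSCs, 895, 1509 and 1365 CPM in *mdx* AMuSCs and 2717 CPM in WT AMuSCs. *Npm1*, nucleophosmin, was at 490.4, 377 and 399.5 CPM, 921, 1492 and 1183 CPM, and 2447 CPM in the same groups. *Dkc1*, the pseudouridine synthase of ribosomal RNA, was at 65.1, 59.5 and 68.4 CPM against 66.6, 127 and 114 CPM, so that replicate 1 lay inside the WT FiMuSC range. *Rrn3*, the initiation factor of RNA polymerase I, rose by 0.65 ± 0.15. Of the ribosomal proteins, 4 of 25 were higher, 3 lower and 23 within 2-fold, with a median of 0.08. The called shares, 16 and 12%, were below the 24.9 and 19.8% of all genes. The counts of 4 and 3 depended on single libraries, at 2 to 5 and 0 to 5 when 1 was left out. *Rps2*, of the small subunit, was at 1220, 1244 and 1283 CPM against 1699, 2557 and 1799 CPM. Reads of ribosomal protein genes can be shared with processed pseudogenes.

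**Figure D5:**
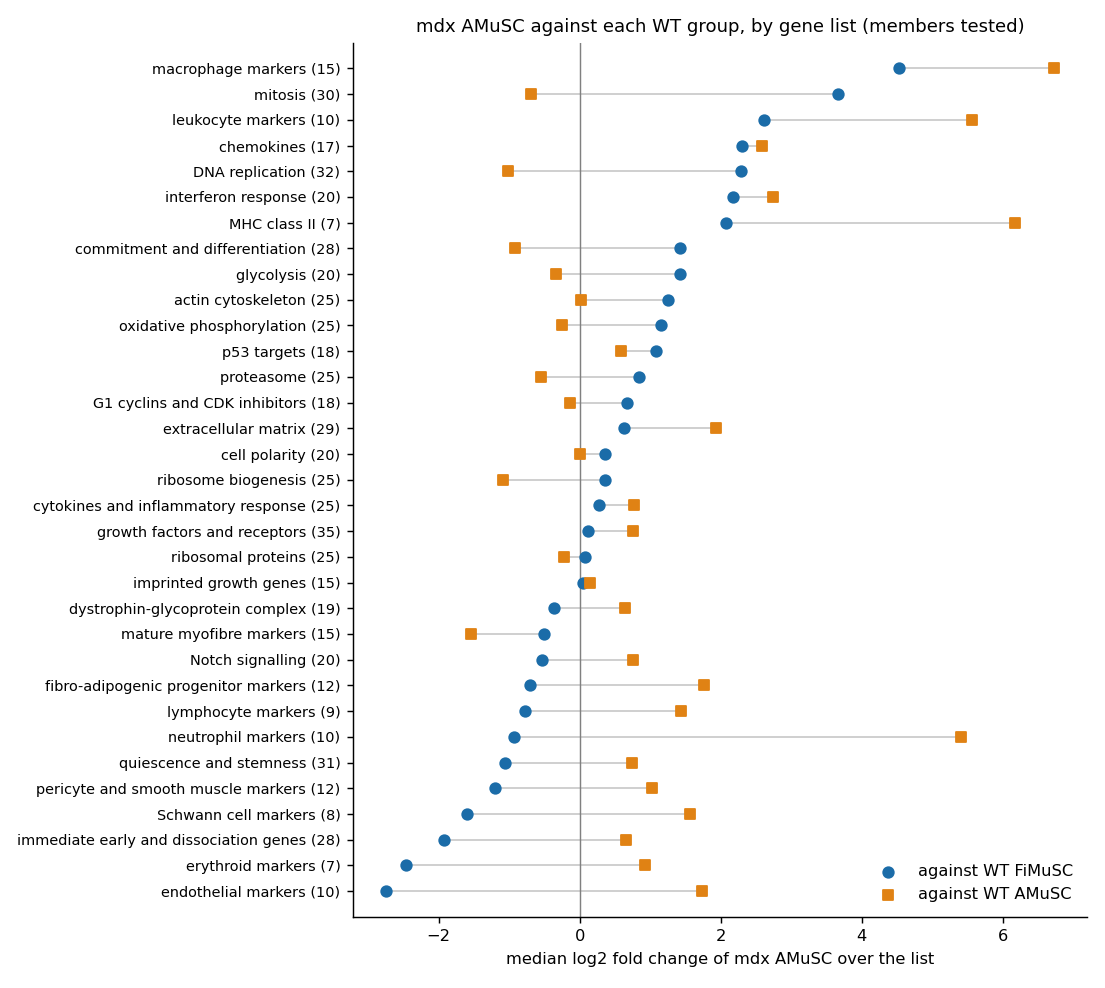
Median log2 fold change of mdx AMuSCs against WT FiMuSCs (circles) and against WT AMuSCs (squares) for 33 gene lists, with the number of members tested in brackets. Mitosis is at 3.67 and -0.70, ribosome biogenesis at 0.35 and -1.08, and extracellular matrix at 0.63 and 1.94. Macrophage markers are at 4.53 and 6.73, or 1.71 and 3.855 without mdx AMuSC replicate 1 (not drawn).

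Most matrix genes were above the WT AMuSC level, and they moved both ways against WT FiMuSCs. Of 29 extracellular matrix genes, 15 were higher and 9 lower than in WT FiMuSCs (median 0.63), and 24 were higher and 0 lower than in WT AMuSCs (median 1.94). Of all genes, 24.9% were higher and 19.8% lower than in WT FiMuSCs, and 16.0% higher and 13.0% lower than in WT AMuSCs. *Col1a2*, a chain of type I collagen, was at 170, 79.5 and 120 CPM in WT FiMuSCs, 3793, 4911 and 2989 CPM in *mdx* AMuSCs and 847 CPM in WT AMuSCs (log2 fold change 4.98 ± 0.30 against WT FiMuSCs and 2.20 against WT AMuSCs, adjusted p = 3.04e-07 and 0.000213). *Col1a1*, its partner chain, was at 112, 50.8 and 115 CPM against 553, 515 and 292 CPM. *Col8a1*, a network collagen, was at 13.3, 6.93 and 7.72 CPM against 220, 201 and 151 CPM, and *Col12a1*, which binds collagen fibrils, at 40.7, 36.5 and 38.3 CPM against 184, 248 and 183 CPM. In uninjured *mdx* FiMuSCs *Col8a1* was at 191, 206 and 207 CPM and did not differ by call from *mdx* AMuSCs (-0.08, adjusted p = 0.796). *Col1a2* and *Col12a1* averaged 978.5 and 85.3 CPM there, and were higher in *mdx* AMuSCs by 1.99 and 1.26 on the log2 scale. All 3 *mdx* AMuSC libraries exceeded every WT FiMuSC library for these collagens, and without replicate 1 the counts were 15 higher and 8 lower against WT FiMuSCs and again 24 higher against WT AMuSCs. *Thbs2*, a matricellular inhibitor of angiogenesis, fell by 2.55 on the log2 scale (SE 0.18), and *Dcn*, a small proteoglycan, by 1.93 (SE 0.37). Of 12 markers of fibro-adipogenic progenitors, collagen-making cells of muscle, 3 were higher and 4 lower than in WT FiMuSCs. These are 25 and 33.3%, against 24.9 and 19.8% of all genes. Relative to WT AMuSCs, 8 of the markers were higher and 0 lower (median 1.77). Their summed level was 3004, 3250 and 2128 CPM in *mdx* AMuSCs, 2724, 4548 and 5320 CPM in WT FiMuSCs and 789.7, 733.1 and 688.9 CPM in WT AMuSCs. The part of RNA from such cells in the matrix genes was not tested. *Dpt*, a matrix protein in that list, was at 518, 647 and 680 CPM in WT FiMuSCs and 74.4, 61.2 and 42.0 CPM in *mdx* AMuSCs.

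Among 35 growth factors and receptors, 15 were higher and 11 lower than in WT FiMuSCs, with a median of 0.12. These are 42.9 and 31.4%, against 24.9 and 19.8% of all genes. Relative to WT AMuSCs, 21 were higher and 1 lower (16.0 and 13.0% of all genes were). *Vegfa*, the main angiogenic factor, was at 113, 111 and 117 CPM in WT FiMuSCs and 21.5, 18.7 and 25.4 CPM in *mdx* AMuSCs (log2 fold change -2.38 ± 0.15), and was below WT AMuSCs (54.4 CPM) by -1.31 (adjusted p = 0.000164). *Fgfr1*, a receptor of FGF2 in MuSCs, was at 1248, 1335 and 1313 CPM against 281, 313 and 352 CPM. *Pdgfc*, a platelet-derived growth factor, was at 10.8, 9.99 and 10.3 CPM against 58.5, 49.2 and 37.6 CPM, with 5.60 CPM in WT AMuSCs and 50.2 CPM in *mdx* FiMuSCs. *Igfbp3*, a binding protein of insulin-like growth factors, rose by 2.96 ± 0.23.

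Immediate early and dissociation genes, which are induced while tissue is digested, were mostly lower. Of 28, 19 were lower and 2 higher than in WT FiMuSCs (median -1.92), or 67.9 and 7.14% against 19.8 and 24.9% of all genes. Against WT AMuSCs 0 were called in either direction by edgeR, where 16.0% of all genes were higher and 13.0% lower. DESeq2 called 4 higher and 0 lower, and 5 higher and 1 lower had an edgeR p under 0.05 before adjustment. The summed level of the 28 genes was 54080, 41870 and 19600 CPM in WT FiMuSCs and 8047, 3757 and 5685 CPM in *mdx* AMuSCs. *Jun* was at 4202, 3772 and 2037 CPM against 805, 491 and 549 CPM, *Junb* fell by 2.14 (SE 0.42) and *Fos* by 2.39 (SE 0.48) on the log2 scale. *Hspa1b*, an inducible chaperone, was at 10340, 10780 and 5545 CPM against 394, 164 and 881 CPM. WT FiMuSC replicate 3 was the lowest of its group for the summed level, *Jun* and *Hspa1b*, and still above all *mdx* AMuSC libraries. Among the 28 genes, the 3 and 3 libraries did not overlap for 15 with *mdx* AMuSCs below and 2 with them above (26.3 and 27.6% of all genes). The part of sample handling in these differences was not tested.

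Of 20 Notch pathway genes, 10 were lower and 2 higher than in WT FiMuSCs (median -0.53), or 50 and 10% against 19.8 and 24.9% of all genes. Set against WT AMuSCs, 9 were higher and 1 lower (6 higher without *mdx* AMuSC replicate 1), where 16.0% of all genes were higher and 13.0% lower. The receptor *Notch2* was at 472, 559 and 596 CPM against 306, 244 and 309 CPM. *Numb*, an inhibitor of Notch, fell by 1.96 (SE 0.17) and *Dtx4*, a ubiquitin ligase of the pathway, by 1.45 (SE 0.15), whereas *Hes6*, which opposes *Hes1*, rose by 1.62 ± 0.20. Of 20 cell polarity genes, 9 were higher and 3 lower than in WT FiMuSCs (45 and 15%, against 24.9 and 19.8% of all genes). *Gpsm2*, which orients the spindle, rose by 2.54 ± 0.17 and *Pard6g* by 1.86 ± 0.20, *Pard3b* fell by 1.78 (SE 0.15), and *Mark2*, the polarity kinase bound by dystrophin, was at 91.2, 98.2 and 87.6 CPM against 78.9, 88.6 and 89.5 CPM. The interval of *Mark2* lay within 2-fold, and *Pard3* differed by 0.21 ± 0.14 (adjusted p = 0.251), or 0.0464 without replicate 1.

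In the dystrophin-glycoprotein complex, 5 of 19 genes were higher and 7 lower than in WT FiMuSCs (26.3 and 36.8%, against 24.9 and 19.8% of all genes). Set against WT AMuSCs, 8 were higher and 1 lower, where 16.0% of all genes were higher and 13.0% lower. *Dmd* was at 278, 288 and 256 CPM in WT FiMuSCs and at 37.7, 18.3 and 26.1 CPM in *mdx* AMuSCs, with 21.7 CPM in WT AMuSCs (log2 difference 0.33, adjusted p = 0.256) and 160 CPM in *mdx* FiMuSCs. It was thus low in both injured groups. *Sgca*, a sarcoglycan, fell by 1.48 (SE 0.17), while *Sntb1*, a syntrophin, and *Dtna*, a dystrobrevin, rose by 1.97 ± 0.21 and 2.33 ± 0.24. Of 25 actin cytoskeleton genes, 21 were higher and 2 lower (median 1.26), and the 2 were 0 without WT FiMuSC replicate 3 and 1 without WT FiMuSC replicate 1 or 2 or *mdx* AMuSC replicate 1 or 3. *Myh9*, non-muscle myosin, was at 469, 484 and 501 CPM against 1330, 1803 and 1593 CPM, and *Actn1*, *Cfl1* and *Pfn1* rose by 2.07, 1.73 and 1.75 on the log2 scale.

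Most listed regulators of the G1 phase and targets of p53 were higher than in WT FiMuSCs (24.9% of all genes were higher and 19.8% lower). Of 18 G1 cyclins and inhibitors, 11 were higher and 3 lower (3 higher and 6 lower than in WT AMuSCs). Against WT AMuSCs 16.0% of all genes were higher and 13.0% lower, and the share of 3 higher is near the former. From the WT FiMuSC level *Cdk6* rose by 3.05 ± 0.25, and *Rbl1*, of the retinoblastoma family, by 2.35 ± 0.12. Of 18 p53 targets, 12 were higher and 3 lower (7 higher and 0 lower than in WT AMuSCs). Their summed level overlapped, at 2102, 1383 and 1077 CPM in WT FiMuSCs and 1358, 1611 and 1330 CPM in *mdx* AMuSCs. *Cdkn1a* (p21) was at 41.7, 40.9 and 43.1 CPM against 159, 306 and 240 CPM, and *Ccng1*, *Zmat3* and *Phlda3* rose by 2.11, 1.78 and 1.75. Of 15 imprinted growth genes tested, 5 were higher and 5 lower (33.3% each way, against 24.9 and 19.8% of all genes). *Mest* was at 158, 293 and 239 CPM in WT FiMuSCs and 2116, 2894 and 1965 CPM in *mdx* AMuSCs, while *Dlk1* was at 6.27, 11.2 and 8.93 CPM against 0.961, 0.789 and 0.742 CPM, and *Mirg*, a non-coding RNA of the same imprinted cluster as *Dlk1*, fell by 5.70 (SE 0.37).

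Interferon genes were raised. Of 20, 12 were higher and 1 lower than in WT FiMuSCs (median 2.18), or 60 and 5% against 24.9 and 19.8% of all genes. Against WT AMuSCs 19 were higher (16.0% of all genes were), and 10 lay on the WT FiMuSC side of the midpoint. That side takes in levels above both WT groups. Without *mdx* AMuSC replicate 1, 12 and 17 were higher, and the median against WT FiMuSCs was 1.20. The 1 lower gene was 0 without WT FiMuSC replicate 3. *Isg15*, the ubiquitin-like interferon product, was at 3.22, 2.40 and 2.05 CPM against 34.7, 20.4 and 8.27 CPM, with 1.89 CPM in WT AMuSCs. *Bst2*, tetherin, was at 9.46, 6.27 and 8.11 CPM against 55.7, 32.6 and 16.7 CPM, and *Usp18* and *Ifi44* rose by 2.86 ± 0.48 and 2.86 ± 0.55. Replicate 1, with its macrophage markers, was the highest of its group for each. Of 25 cytokine and inflammatory response genes 4 were higher and 1 lower than in WT FiMuSCs (median 0.28). These shares, 16 and 4%, were below the 24.9 and 19.8% of all genes. The higher count was 9 without *mdx* AMuSC replicate 2. The lower count was 5 without *mdx* AMuSC replicate 1 (median -0.18), and 0 without any 1 of the other libraries but WT FiMuSC replicate 3. *Il33*, an alarmin, was at 3.81, 1.28 and 0.888 CPM against 16.4, 64.7 and 37.9 CPM, where replicate 1 was the lowest, whereas *Tnf* (15.3, 0.769 and 1.47 CPM) was called higher but had an adjusted p of 0.101 without replicate 1. *Il1rl1*, the receptor of *Il33*, rose by 2.97 ± 0.60 and *Csf1*, the macrophage growth factor, by 1.30 ± 0.33. Of 17 chemokines 4 were higher and 3 lower (23.5 and 17.6%, near the 24.9 and 19.8% of all genes), and the 4 became 2 without *mdx* AMuSC replicate 1 or WT FiMuSC replicate 3 and 9 without *mdx* AMuSC replicate 2 or 3. *Cxcl12*, a homing signal of stem cells, was at 115, 67.3 and 64.5 CPM against 21.9, 36.2 and 37.4 CPM.

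Markers of other cell types moved both ways. Of 15 macrophage markers 11 were higher than in WT FiMuSCs, or 6 without *mdx* AMuSC replicate 1, WT FiMuSC replicate 1 or WT FiMuSC replicate 3. *C1qa*, *C1qb* and *C1qc*, the chains of complement C1q made by macrophages, were at 238, 341 and 212 CPM in replicate 1, at 10.7, 14.5 and 8.22 CPM in replicate 2, at 14.6, 24.3 and 16.1 CPM in replicate 3 and at no more than 3.87 CPM in WT FiMuSCs. Of 10 leukocyte markers 3 were higher, and 0 without replicate 1. The 3 were also 0 without WT FiMuSC replicate 1 or 3, 1 without WT FiMuSC replicate 2, 6 without *mdx* AMuSC replicate 2 and 5 without *mdx* AMuSC replicate 3. Of 7 MHC class II genes 1 was higher, with 0 to 2 when a library was left out. *Ptprc* was not called (2.38 ± 1.12, adjusted p = 0.109) and had a log2 fold change of -0.21 without replicate 1. Of 10 neutrophil markers 0 were called in either direction by edgeR, by DESeq2 or by an edgeR p under 0.05 before adjustment, which each gave 0, and 6 were lower without replicate 1. Of 9 lymphocyte markers tested, of 12, 1 was higher (2 without *mdx* AMuSC replicate 3) and 3 lower. These are 11.1 and 33.3%, against 24.9 and 19.8% of all genes. Set against WT AMuSCs, 15 macrophage, 10 leukocyte and 7 MHC class II markers were higher (16.0% of all genes were). Without *mdx* AMuSC replicate 1 these counts were 12, 8 and 7.

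All 10 endothelial markers were lower (19.8% of all genes were), with a sum of 418, 349 and 436 CPM in WT FiMuSCs and 41.7, 63.2 and 81.5 CPM in *mdx* AMuSCs. *Tek*, the angiopoietin receptor, was at 169, 151 and 138 CPM against 18.04, 17.9 and 18.3 CPM, and *Cdh5*, the endothelial cadherin, at 45.0, 23.8 and 32.8 CPM against 0.981, 5.13 and 11.2 CPM. The call of *Cdh5* (adjusted p = 0.0304) was lost without WT FiMuSC replicate 1 (0.0841), WT FiMuSC replicate 3 (0.0626) or *mdx* AMuSC replicate 2 (0.072). All 7 erythroid markers were lower, 4 without WT FiMuSC replicate 1, 5 without *mdx* AMuSC replicate 1 and 2 with all 24 libraries in the fit, and the paired globin genes *Hba-a1* and *Hba-a2* are near-identical, so that reads cannot be divided between them with certainty. Of 8 Schwann cell markers 5 were lower and 1 higher (62.5 and 12.5%), and of 12 pericyte and smooth muscle markers 8 lower and 3 higher (66.7 and 25%). Of all genes, 19.8% were lower and 24.9% higher. Of 15 mature myofibre markers 5 were lower and 2 higher, with 2 or 3 lower and 1 to 3 higher whenever a library was left out. The main counts are 33.3 and 13.3%, against 19.8% lower and 24.9% higher of all genes. *Ckm*, muscle creatine kinase, was at 16.6, 11.4 and 11.2 CPM against 1.26, 3.19 and 2.53 CPM, and its call (adjusted p = 0.0484) was lost without any of the 6 libraries (0.0746 to 0.128).

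Of the 15 largest rises among abundant genes without overlap, *C1qa*, *C1qb*, *C1qc* and *Rgs1* were far higher in *mdx* AMuSC replicate 1 than in the others of its group, and *Col1a2* is given above. *Edil3*, an integrin ligand, was at 0.998, 0.176 and 0.345 CPM in WT FiMuSCs and 47.8, 53.6 and 39.9 CPM in *mdx* AMuSCs (log2 fold change 6.55 ± 0.48). *Postn*, periostin, was at 38.4, 7.86 and 7.25 CPM against 759, 738 and 422 CPM, and *Col6a3*, of type VI collagen, at 18.6, 7.63 and 12.1 CPM against 297, 554 and 386 CPM. These genes were also above WT AMuSCs, by 3.99, 4.05 and 3.57 on the log2 scale. *Lgr5*, a receptor of R-spondins, was at 1.05, 0.374 and 0.691 CPM against 31.2, 30.7 and 31.6 CPM. *Pkp1*, *Islr2*, *Mme* and *Ahnak2* rose by 5.77, 5.06, 4.97 and 4.92. *Tnnt2*, the troponin T of heart and embryonic muscle, and *Smyd1*, a methyltransferase of sarcomere assembly, rose by 5.07 and 4.96 and differed from WT AMuSCs by -0.29 (adjusted p = 0.767) and -0.05 (adjusted p = 0.944). *Rgs1*, a regulator of G protein signalling in leukocytes, rose by 5.76 but stood at 198 CPM in replicate 1 and 4.08 and 10.8 CPM in the others, with an adjusted p of 0.0556 without replicate 1.

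The largest falls, of 5.89 to 7.75 on the log2 scale, were of genes at no more than 10.4 CPM in any *mdx* AMuSC library. *Ttyh1*, a membrane protein of the tweety family, was at 142, 582 and 472 CPM in WT FiMuSCs and 2.30, 1.58 and 1.67 CPM in *mdx* AMuSCs. *Lamc3*, a laminin chain, was at 91.7, 159 and 226 CPM against 0.961, 0.749 and 1.20 CPM, and *Angptl1*, a secreted angiopoietin-like protein, at 32.3, 51.1 and 46.8 CPM against 0.5005, 0.532 and 0.607 CPM. *Nctc1*, *Nap1l5*, *Slc38a3*, *Ppp1r14a*, *Tshr*, *Mlxipl*, *Zbtb16*, *Mapt*, *Nppc* and *Kcne4* fell by 5.89 to 7.08 on the log2 scale. Among these 15 genes, *Chrdl2*, *Tnxb*, *Lamc3*, *Nctc1*, *Slc38a3*, *Tshr* and *Mlxipl* were also called lower than in WT AMuSCs.

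A small set stayed within 2-fold of the WT FiMuSC level. Of 4107 genes with a called WT injury change of at least 4-fold, 48 had an interval within 2-fold between *mdx* AMuSCs and WT FiMuSCs and 404 between *mdx* AMuSCs and WT AMuSCs. The 10 with the narrowest interval against WT FiMuSCs all fell with injury in WT and are described without a test. *Lama2*, the laminin chain of the muscle basal lamina, was at 547, 593 and 613 CPM in WT FiMuSCs, 534, 404 and 451 CPM in *mdx* AMuSCs and 159, 149 and 123 CPM in WT AMuSCs. *Olfml2a*, an olfactomedin-like matrix protein, was at 497, 604 and 515 CPM, 474, 506 and 356 CPM, and 114, 117 and 93.7 CPM in the same order. *Adamts15*, a metalloprotease that cleaves versican, was at 140, 135 and 149 CPM, 114, 92.1 and 92.2 CPM, and 23.2, 23.7 and 19.3 CPM. Each *mdx* AMuSC library was nearer the WT FiMuSC range than the WT AMuSC range. *Ttc28*, *Agap2*, *Ifi27*, *Clip3*, *Nacc2*, *Fcgrt* and *Ssc5d* had log2 differences from WT FiMuSCs of -0.67 to -0.44, against -2.71 to -2.07 for WT injury.

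The genes furthest toward either WT side included several that were highest in 1 library or at 0 in a group. *Gvin1*, *Clec4a3*, *Trim30d*, *Ly9* and *Arl11*, furthest on the WT FiMuSC side, were at 56.4, 34.1, 14.6, 30.03 and 20.02 CPM in *mdx* AMuSC replicate 1 and at no more than 5.60 CPM in the other libraries of its group, and *Gvin1* and *Trim30d* changed sign without it. On the WT AMuSC side, *Nell1*, *Lrrc38* and *Sds* had 0 counts in all 3 *mdx* AMuSC libraries, where 3 counts, the limit that a count of 0 allows, stand for no more than 0.0623 CPM, and at most 1.89 CPM in WT FiMuSCs. *Slc22a3*, a cation transporter, was at 16.1, 87.6 and 34.5 CPM in WT FiMuSCs and at 0.18, 0 and 0 CPM in *mdx* AMuSCs. *Htr1a*, a serotonin receptor, had 0 counts in all WT FiMuSC libraries and was at 7.69, 2.23 and 0.607 CPM in *mdx* AMuSCs.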

How the data were processed

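Bulk polyA RNA-seq libraries of sorted MuSCs were compared by the groups and replicate numbers of the submitters' labels, which the study describes as biological triplicates. The tables the authors deposited list, per transcript, expected counts (reads assigned by estimation), TPM and effective lengths. Salmon 0.13.1, DESeq2 and the GRCm38 build stand in the processing notes of the submitters. The counting strand and settings are not given in the sources used here. The deposited TPM values and effective lengths served only to weight transcript lengths for 1 alternative.

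Expected counts were summed per gene and rounded, and 53355 of 53392 genes were matched to GENCODE M21. Totals of the 12 sorted libraries were 37280196 to 57229852; the spread between replicates, not counting error, set the precision. All 12 sorted libraries were fitted together with edgeR 4.0.16 (filterByExpr on the 4 groups, TMM, robust quasi-likelihood test, two-sided, Benjamini-Hochberg adjustment, threshold 0.05) in R 4.3.3; 21086 genes were kept. Fold changes are log2 with SE, CPM use TMM factors, and log2 CPM a prior count of 2. Principal components used the 500 most variable genes of the 24 libraries, centred. Limits on a count of 0 use 3 counts and cover counting error only. In simulated data of 20563 genes in this comparison, 67, 67 and 66 genes were changed by 1.5, 2 and 4-fold. Of these 4.48, 28.4 and 53.0% were recovered, with 3 false calls. Far more genes (9430) were called in the data, and the adjusted threshold depends on how many genes change. These rates therefore hold for the simulated setting and do not give the recovery in the data. Replicates differed by far more than sampling noise, and none was a duplicate.

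The members and the 33 gene lists were chosen with earlier results of these data known. Genes named are the 15 largest changes each way (adjusted p under 0.05, no overlap between the 3 and 3 libraries, mean log2 CPM of at least 2, no predicted loci), from every list up to 4 members by smallest p, the genes named in the study's RNA-seq text, the 5 genes furthest on either side of the WT midpoint, and the 10 with the narrowest interval within 2-fold of WT FiMuSCs among genes with a WT change of at least 4-fold. Alternatives were RLE scaling, no filter, DESeq2 1.42.0, a replicate block, a transcript length offset, 24 or 6 libraries in the fit, other distance measures, and each library left out in turn. Same-numbered libraries of the groups did not deviate together (r = -0.05, -0.11 and 0.02), so that no block was used. Promoter sequences are those of RefSeq on GRCm38.p6.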

Additional observations from a re-analysis of the deposited data

Results flagged for a closer look

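The response to injury differed between genotypes for 3189 of 21086 genes (15.1%) by the interaction term of the same fit, that is *mdx* AMuSCs minus *mdx* FiMuSCs against WT AMuSCs minus WT FiMuSCs, with 1717 genes less reduced or more raised in *mdx* and 1472 the reverse. *Pax7* was among the former, with a difference of responses of 0.94 ± 0.22 on the log2 scale (adjusted p = 0.015), and so was *Calcr*, with 1.96 ± 0.36 (adjusted p = 0.00564). The genes were called over 3 libraries per group, of which *mdx* AMuSC replicate 1 had the high macrophage markers given above, and the part of that library in this count was not tested.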

How the results depend on the processing

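The ratio of distances (0.570) reversed over all genes (1.24), by rank correlation (1.56), in the plane of the 12 sorted libraries (1.21) and, as an alternative added after the data had been seen, with the 500 genes outside the plane (1.07); leaving out 1 library gave 0.427 to 1.14, the latter without *mdx* AMuSC replicate 1 and with the components computed again (0.826 with the components kept, also added after the data had been seen). The count of genes on the WT FiMuSC side (888) ranged from 528 to 1146 when 1 library was left out, and without a WT library the contrast is no longer uncorrelated with the WT difference. Counts of genes called stayed within 1.5 times in every alternative run, at 7508 (6 libraries alone) to 10165 (DESeq2) for *mdx* AMuSCs against WT FiMuSCs and 4248 to 7170 against WT AMuSCs, and the latter was the lower in each alternative that gave both. Without *mdx* AMuSC replicate 1 the log2 fold changes of *Ciita*, *H2-DMa*, *H2-Ab1*, *Csf3r*, *Ptprc*, *Gvin1* and *Trim30d* turned negative, and ranged over the libraries left out from -0.223 to 2.995, -0.607 to 2.314, -0.492 to 2.886, -1.204 to 1.857, -0.212 to 3.231, -0.596 to 2.323 and -0.0846 to 2.982; the cause was not tested. The call of *Il1rl1* was lost (adjusted p = 0.0635) once transcript lengths entered as an offset and that of *Dcn* with all 24 libraries in the fit (0.173). Of the values of named genes under the alternatives, 2324 kept direction and call, 90 lost the call and 20 gained it; of the list counts 94 moved by over 1.5 times and 764 did not. With the replicate number as a block, which the deviations do not bear out (of 3 pairs, not every library correlated best with its own number), 8965, 5512, 11180 and 7224 genes were called in the 4 comparisons and 684 and 2337 lay on the WT FiMuSC and AMuSC sides. Genes below about 1 CPM rest on few counts.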
